A study of Mus musculus with 6 samples.

Results

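The let-7 family was described here through its mature 5p arms, let-7a, let-7b, let-7c, let-7d, let-7e, let-7f, let-7g and let-7i together with miR-98, in small RNA of extracellular vesicles shed by apoptotic mouse osteoblasts. The 9 members were taken by name from a table of 1712 entries, 1528 of them with a mouse miRNA name and 184 with a number in its place. Osteoblasts of SIRT6f/f mice, which carry floxed Sirt6 alleles and no Cre, gave 3 control libraries, and osteoblasts of Prx1cre;SIRT6f/f mice gave 3 libraries, called knockout here. All donor mice therefore carried the floxed alleles, and the groups differed by the Cre, which the Prx1 enhancer drives in the early limb mesenchyme and its descendants. The osteoblasts of both groups were driven into apoptosis and kept in serum-free medium for 48 h before the vesicles were collected. Sirt6 encodes a nuclear deacetylase, and its own transcript is not measured by small RNA sequencing, so its loss could not be checked in these data. Ages of the mice and the origin of the replicates (animals or cultures) are not in the labels, and p-values therefore cover the spread among these libraries alone, which could be technical.

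The let-7 miRNAs are among the most conserved animal miRNAs. They accumulate as cells leave the progenitor state and repress growth-promoting transcripts such as those of Hmga2, Myc, Ras genes and Lin28, while the Lin28 proteins in turn block the maturation of let-7 precursors. Each is cut from a hairpin, whose 5p arm is the one mostly loaded into Argonaute in this family, and the bases next to its 5′ end, the seed, pair with the target.

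The mature sequences (RefSeq, GRCm38.p6) are shown because the members are so alike that a read can be assigned to the right one only by a few bases. All 9 matched the sequence table. The prefix mmu stands for mouse. They are written 5′ to 3′, with the seed, bases 2 to 8, in capitals.
mmu-let-7a-5p: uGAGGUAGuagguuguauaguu
mmu-let-7b-5p: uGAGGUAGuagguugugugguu
mmu-let-7c-5p: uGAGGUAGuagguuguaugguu
mmu-let-7d-5p: aGAGGUAGuagguugcauaguu
mmu-let-7e-5p: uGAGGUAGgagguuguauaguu
mmu-let-7f-5p: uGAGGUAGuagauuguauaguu
mmu-let-7g-5p: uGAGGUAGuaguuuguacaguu
mmu-let-7i-5p: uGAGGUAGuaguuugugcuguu
mmu-miR-98-5p: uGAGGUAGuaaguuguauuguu
All 9 have the same seed and a length of 22 nt, so their levels were compared with no correction for length. Counted from 1 at the 5′ end with let-7a-5p as the reference, let-7c differs by A19G, let-7e by U9G and let-7f by G12A, each a single substitution. let-7b differs by A17G and A19G, let-7d by U1A and U16C, let-7g by G12U and U18C, and miR-98 by G11A and A19U. let-7i is the farthest from let-7a, with G12U, A17G, U18C and A19U. Of the 36 pairs of members, 4 differ at 1 base and 10 at 2 bases. The number of mismatches that the authors' mapping allowed is not known here, so the split of reads among let-7a, let-7b, let-7c, let-7e and let-7f is less certain than their sum.

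The members come from 12 hairpins on 7 chromosomes (positions from RefSeq on GRCm38.p6, overlaps from GENCODE M21 on the same build; the build the authors used is not known here). The hairpins of let-7a-1 (chromosome 13, 48538179 to 48538272), let-7f-1 (48537829 to 48537917) and let-7d (48536012 to 48536114) lie on the minus strand in exons of the lincRNA 6720427I07Rik. The hairpins of let-7c-2 (chromosome 15, 85706603 to 85706697) and let-7b (85707319 to 85707403) lie in exons of the noncoding transcript Lncppara. The hairpin of let-7c-1 (chromosome 16, 77599657 to 77599750) lies in an intron of Mir99ahg, that of let-7e (chromosome 17, 17830352 to 17830444) in an intron of Spaca6, and that of let-7a-2 (chromosome 9, 41536716 to 41536811) in introns of the noncoding 3110039I08Rik and Gm49317. The hairpin of let-7g (chromosome 9, 106178840 to 106178927) lies in an intron of Wdr82, and those of let-7f-2 (chromosome X, 151912346 to 151912428) and miR-98 (151913214 to 151913321) in an intron of Huwe1, while that of let-7i (chromosome 10, 122985640 to 122985724) overlaps an exon of the transcribed pseudogene D630033A02Rik. The let-7c hairpins, shown with the mature 5p arm in capitals, illustrate that a 5p read does not tell its locus: the capitals are the same in both, and the 3p arms that follow them are not.
Mirlet7c-1: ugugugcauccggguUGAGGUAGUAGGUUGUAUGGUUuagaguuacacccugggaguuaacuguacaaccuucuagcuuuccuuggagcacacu
Mirlet7c-2: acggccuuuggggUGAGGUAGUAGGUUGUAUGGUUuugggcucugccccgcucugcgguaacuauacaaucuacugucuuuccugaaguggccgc
The same holds for let-7a (Mirlet7a-1 and Mirlet7a-2) and let-7f (Mirlet7f-1 and Mirlet7f-2), whose values are sums over their hairpins.

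Values are reads per 1000000 listed reads (RPM), and each library sums to 1000000 over named and unnamed entries alike. The libraries held 1352045 to 1627705 reads in the control and 1608276 to 1838239 in the knockout group, as recovered from the steps between RPM values, in which the lowest value stands for 2 reads. Of 8 mesenchymal and osteoblast lineage miRNAs fixed as markers, 7 were listed, with a summed level of 145126 to 168157 RPM in the control and 60567 to 107458 RPM in the knockout libraries; miR-199a-3p was not listed under that name. Markers of other cell types were low. Of these, miR-486a-5p (erythroid) and miR-124-3p (neural) were not listed, which left 2 of 3 erythroid and 1 of 2 neural markers. Erythroid markers summed to 38.6 to 132 RPM over both groups, other blood cell markers to 15.8 to 73.1 RPM, endothelial markers to 15.2 to 63.6 RPM, muscle markers to 40.3 to 85.1 RPM and the liver marker to 3.26 to 18.7 RPM, each without overlap between the groups and lower in the knockout. Epithelial markers (8.14 to 16.6 RPM in the control, 9.79 to 18.0 RPM in the knockout libraries) and neural markers (1.23 to 5.05 against 0 to 6.78 RPM) overlapped. The part of such cells in the let-7 values was not tested. Entries with a miRNA name took 50.0% to 56.9% of the reads in the control libraries and 37.2% to 47.2% in the knockout libraries. Within them, 5 fragment-like entries (miR-6236, miR-6238, miR-6239, miR-6240 and miR-3968), set apart here by name, took 3.93% to 6.74% of the named reads in the control and 13.6% to 19.2% in the knockout libraries.

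Together the 9 members were an abundant family in the vesicles, and their total was lower in every knockout library than in any control library. The total was 50253, 52358 and 50776 RPM in the control libraries and 35070, 39023 and 21508 RPM in the knockout libraries, in replicate order. The control libraries lay within a narrow range, and knockout replicate 3 lay far below the other knockout libraries. The group means were 51129 ± 1096 and 31867 ± 9186 RPM (mean ± SD, n = 3 each), 37.7% lower in the knockout group, or 27.5% lower without knockout replicate 3. As a share of all listed reads this was 5.11% and 3.19%. In bulk RNA, fewer vesicles from a cell type and less of a miRNA per vesicle cannot be told apart, and shares of reads do not give amounts of RNA.

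The most abundant member was let-7i, which has a locus of its own. It had 14668, 16020 and 14733 RPM in the control libraries and 10656, 12094 and 6160 RPM in the knockout libraries. let-7c, made from hairpins on chromosomes 15 and 16, had 12842, 13488 and 13329 RPM against 8816, 9510 and 5546 RPM. Both lay below every control library in every knockout library, and in both the lowest value was that of knockout replicate 3. let-7f, made from hairpins on chromosomes 13 and X, had 7157, 6981 and 7383 RPM in the control and 4892, 5635 and 2920 RPM in the knockout libraries. let-7b, which shares the transcript Lncppara with let-7c-2, had 6067, 6247 and 6181 RPM against 3912, 4278 and 2533 RPM. let-7a, the member from which the family is usually described, had 4775, 4927 and 4694 RPM against 3408, 3656 and 2228 RPM. The groups did not overlap for any of these 3, and the control libraries were close together. let-7g, from the intron of Wdr82, had 1779, 1967 and 1725 RPM in the control and 1393, 1723 and 879 RPM in the knockout libraries. Here the gap between the groups was far smaller than counting error, since knockout replicate 2 was almost level with control replicate 3. let-7e, which lies next to miR-125a, had 2094, 1788 and 1880 RPM against 1378, 1438 and 849 RPM. let-7d, the only member that does not start with U, had 767, 845 and 753 RPM against 548, 607 and 356 RPM. Neither of these overlapped between the groups. miR-98, named apart although it has the let-7 seed, was the rarest member, at 104, 96.2 and 98.9 RPM against 68.4, 82.5 and 37.5 RPM. It followed the same order of libraries in the knockout group as the other members did, with replicate 2 highest and replicate 3 lowest.

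**Figure D1:**
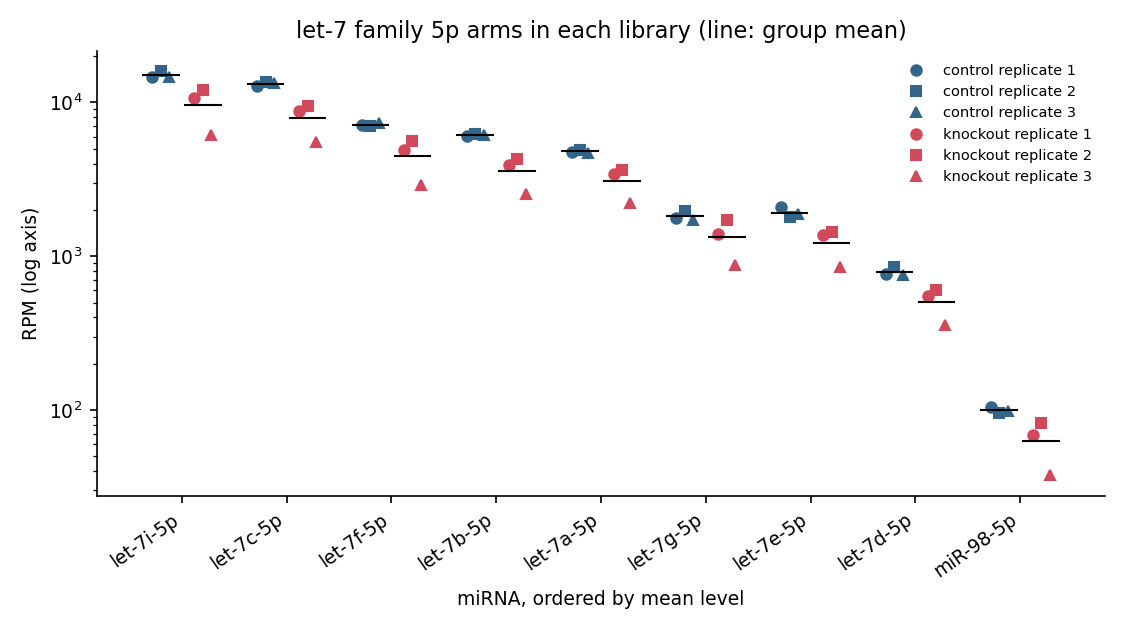
RPM (log axis) of the 9 members in each library, ordered by mean level; blue points are control and red points knockout libraries, with a marker shape for each replicate, and black lines are group means. In every member the 3 knockout points lie below the 3 control points, with knockout replicate 3 lowest. For let-7g, knockout replicate 2 is almost level with control replicate 3.

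The order of levels was nearly the same in all 6 libraries. let-7i exceeded let-7c in 6 of 6 libraries, by 1.11 to 1.27 times, let-7c exceeded let-7f in 6 of 6 by 1.69 to 1.93 times, let-7f exceeded let-7b in 6 of 6 by 1.12 to 1.32 times, and let-7b exceeded let-7a in 6 of 6 by 1.14 to 1.32 times. let-7a stood at least 2.12 times above let-7g in every library. let-7g and let-7e were the only neighbours that changed places: let-7g was higher in 4 of 6 libraries, and the ratio ran from 0.850 to 1.20. In the control group let-7g was higher only in replicate 2, at 1967 against 1788 RPM. It was higher in every knockout library, at 1393 against 1378, 1723 against 1438 and 879 against 849 RPM. Their order thus differed between libraries. let-7e stood at least 2.12 times above let-7d in every library, and let-7d at least 7.36 times above miR-98. Among the named entries let-7i had a median rank of 10 over the control and 13 over the knockout libraries, that of let-7c 12 and 15, that of let-7a 22 and 27 and that of let-7g 42 in both. let-7i and let-7c together made up 54.4% to 56.4% of the family's reads in every library, and the 4 most abundant members 79.8% to 82.0%.

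Counting error was largest for miR-98, the rarest member. In knockout replicate 3, the library with the fewest let-7 reads, the family had 39537 recovered reads. miR-98 had 69 of these, a counting error of 12.0%, and the exact 95% Poisson interval around its 37.5 RPM was 29.2 to 47.5 RPM, below the lowest control value of 96.2 RPM. In knockout replicate 2, however, the interval of miR-98 was 69.6 to 97.0 RPM and included that control value. For let-7g the intervals of knockout replicate 2, 1662 to 1785 RPM, and of control replicate 3, 1662 to 1790 RPM, nearly coincided. Such intervals cover counting error only, because reads without molecular identifiers are not independent molecules.

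The comparison of the genotypes asks whether the let-7 content of the vesicles differs when Sirt6 is deleted in the mesenchymal lineage. On the deposited scale all 9 members were lower in the knockout group, by 0.51 to 0.82 on the log2(RPM + 1) scale, and none passed the test across all entries (limma with a mean-variance trend, 2-sided, adjusted p under 0.05). let-7b had the largest difference, 6165 ± 90.9 RPM in control against 3575 ± 920 RPM, or -0.82 ± 0.30 SE on the log2 scale (limma adjusted p = 0.0850), followed by let-7c with -0.77 ± 0.32 (limma adjusted p = 0.134). let-7g had the smallest, 1823 ± 127 against 1332 ± 425 RPM (-0.51 ± 0.29, limma adjusted p = 0.319). The other members lay between -0.73 and -0.66, namely let-7f at -0.73, miR-98 at -0.73, let-7i at -0.71, let-7e at -0.69, let-7d at -0.68 and let-7a at -0.66. At an unadjusted p under 0.05, 8 of 9 members were lower, all except let-7g, beside 163 of all 1114 entries tested (14.6%) and 47.1% of the 51 named entries with means of 1000 RPM or more. That count of members moved most with the control libraries and the trend: it was 4 without control replicate 1, 4 without control replicate 2, 1 without control replicate 3 and 0 with no trend in limma. Without knockout replicate 1, 2 or 3 it was 8, 9 and 6, and with quantile normalization 7. Of the 1114 entries, limma called 30 lower (2.69%) and 24 higher (2.15%), and of the 51 it called 6 lower (11.8%) and 6 higher (11.8%). The groups did not overlap, with the knockout lower, for 9 of 9 members, beside 19.3% of all entries tested and 68.6% of those 51, 7 of which are members. For let-7g and miR-98 the closest libraries of the groups lay within counting error of each other. An exact permutation test of 3 against 3 libraries cannot give a p below 0.1 for a single miRNA.

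Lower values were common among abundant miRNAs. The median log2 fold change was -0.71 over the 9 members, -0.27 over all 1114 entries tested and -0.55 over the 44 named entries of that level outside the family, whose quartiles were -0.78 and 0.16. All members except let-7b lay between those quartiles. Without knockout replicate 3 the median of the members was -0.44, with let-7b at -0.59 and let-7g at -0.23, beside -0.36 for the 44 entries, and the lowest limma adjusted p was 0.0628, again that of let-7b. limma moderates each standard error toward a trend over all entries. On the deposited scale its p-values match those of a normal test statistic. Each error there was in effect the trend value for that level, with hardly any weight on the member's own spread. The errors from the members' own spread were 0.22 to 0.34, beside 0.29 to 0.34 in limma, with 0.22 beside 0.30 for let-7a.

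Relative to the other named miRNAs, which removes the unnamed entries from the denominator, the members were lower by less. Per 1000000 reads of named entries other than the members, let-7i had 28296, 35796 and 32497 reads in the control and 25248, 27918 and 17551 reads in the knockout libraries. let-7b had 11704, 13958 and 13634 against 9270, 9876 and 7218 reads. let-7g had 3431, 4394 and 3805 against 3300, 3977 and 2505 reads. The groups did not overlap for let-7i and let-7b, whereas let-7g in knockout replicate 2 exceeded 2 of the 3 control libraries. On this scale the log2 fold changes ran from -0.58 ± 0.22 SE for let-7b (limma adjusted p = 0.174) to -0.27 ± 0.21 for let-7g (limma adjusted p = 0.566), with a median of -0.47. Without knockout replicate 3 the median was -0.30 and let-7g was at -0.09. None of the 9 members passed the threshold, and 5 had an unadjusted p under 0.05, beside 9.34% of all entries tested and 29.4% of the 51 abundant named ones. Of the 44 abundant named entries outside the family, 11 were lower at such a p. This count was 3 without control replicate 1, 0 without control replicate 2 or 3, 2 without knockout replicate 1, 3 without knockout replicate 3, 0 with no trend, 0 without fragment-like entries in the denominator and 1 with median centring. It was also 6 without knockout replicate 2, 4 with no filter on low values, 3 with a robust prior and 2 with the replicate number as a block. Counts at an unadjusted p are not alike on the deposited scale and this one, since limma leaned less on the trend here. At nearly the same ratio of difference to SE, let-7b had an unadjusted limma p of 0.0162 here and 0.00664 as deposited. Of the 1114 entries limma called 5 lower (0.449%) and 25 higher (2.24%), and of the 51 it called 0 lower and 7 higher (13.7%). The groups did not overlap, with the knockout lower, for 8 of 9 members, all but let-7g, beside 14.5% of all entries tested and 60.8% of the 51 abundant named ones (56.8% of the 44 outside the family).

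**Figure D2:**
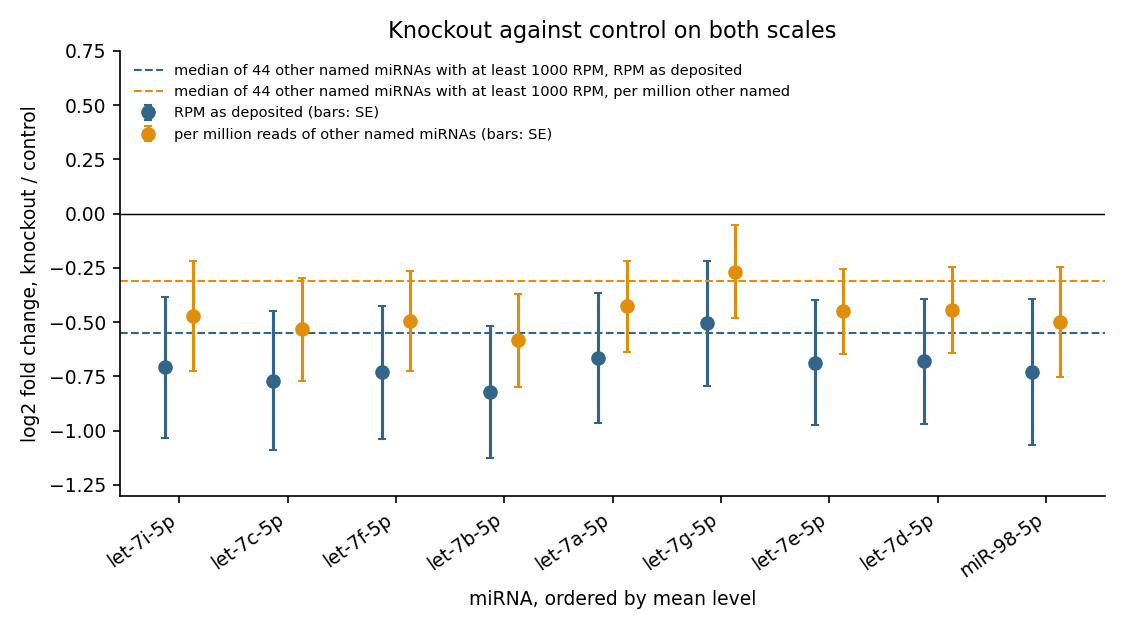
log2 fold change (knockout over control) of the 9 members with its SE, as deposited (blue) and per 1000000 reads of the other named miRNAs (orange); dashed lines are the medians of the 44 named miRNAs outside the family that average 1000 RPM or more. All points lie below 0, and let-7g lies closest to it on both scales.

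The share of the family in the named reads was 8.84%, 10.5% and 10.1% in the control libraries and 7.67%, 8.26% and 5.77% in the knockout libraries. The groups did not overlap, with 9.79% ± 0.853 for the control and 7.24% ± 1.30 for the knockout libraries (SD, n = 3 each). When the 5 fragment-like entries were also left out of the denominator, the shares were 9.48%, 10.9% and 10.5% against 9.21%, 9.57% and 7.14%, and the groups overlapped, since knockout replicate 2 then exceeded control replicate 1. On that scale the members had a median log2 fold change of -0.27, from -0.38 for let-7b to -0.07 for let-7g, beside 0.05 over all entries tested and -0.11 over the 44 other abundant named entries. The groups then did not overlap for 4 of 9 members, let-7a, let-7b, let-7c and let-7e, beside 9.16% of all entries tested and 37.3% of the 51 abundant named ones (34.1% of the 44 outside the family). The size of the difference thus depended strongly on the denominator. The median of the members was -0.71 as deposited, -0.47 relative to the other named miRNAs and -0.27 without the fragment-like entries. Its direction was the same for all 9 members on the 3 scales. The share of fragment-like entries in all reads was 3.83%, 1.96% and 2.22% in the control and 7.62%, 6.42% and 7.15% in the knockout libraries. Control replicate 1 had the highest such share and the lowest let-7 share of the named reads in its group. In the knockout group these were different libraries, replicate 1 and replicate 3. As a share of the named reads, however, fragment-like entries took 16.7%, 13.6% and 19.2% in the knockout libraries. On that measure knockout replicate 3 and control replicate 1 (6.74%) were the highest of their groups. These were also the libraries with the lowest let-7 share of the named reads in each group. The part of these entries in the let-7 values beyond this rescaling was not tested.

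**Figure D3:**
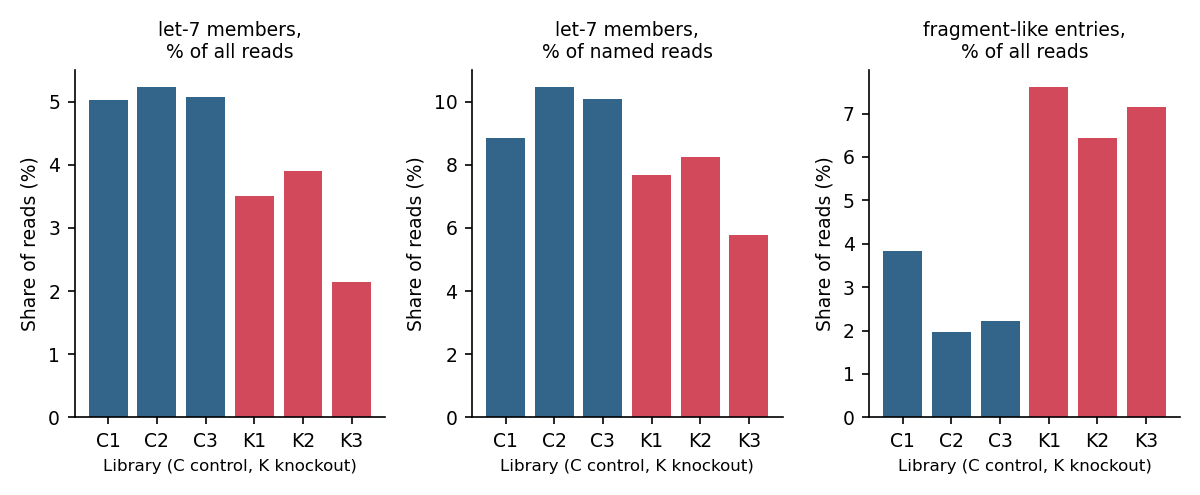
Share of reads (%) in each library taken by the 9 let-7 members among all reads (left) and among named reads (middle), and by 5 fragment-like entries among all reads (right); C1 to C3 are control and K1 to K3 knockout libraries. The let-7 bars of K1 to K3 are lower and the fragment-like bars higher than those of C1 to C3.

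The make-up of the family itself hardly differed between the genotypes, and these shares do not depend on what the reads were scaled to. let-7i took 29.2%, 30.6% and 29.0% of the family's reads in the control libraries and 30.4%, 31.0% and 28.6% in the knockout libraries. let-7c took 25.6%, 25.8% and 26.3% against 25.1%, 24.4% and 25.8%. let-7f took 14.2%, 13.3% and 14.5% against 13.9%, 14.4% and 13.6%. In these 3 the ranges of the groups overlapped. let-7a took 9.39% ± 0.131 of the family in control and 9.82% ± 0.501 in knockout libraries, let-7e 3.76% ± 0.379 and 3.85% ± 0.146, let-7d 1.54% ± 0.0667 and 1.59% ± 0.0554, and miR-98 0.195% ± 0.0115 and 0.194% ± 0.0185 (mean ± SD, n = 3 each), also with overlap. Knockout replicate 3, in which the family's total was lowest, had shares close to those of the other libraries.

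For 2 of 9 members, let-7b and let-7g, the shares did not overlap between the groups, beside 21.5% of all entries tested when scaled to the family (18.5% higher and 2.96% lower). The 2 proportions are not alike, because on that scale the median log2 fold change was 0.32 over all entries and 0.02 over the members. The lower share of let-7b stands beside the 2.96%, and the higher share of let-7g beside the 18.5%. let-7b took 12.1%, 11.9% and 12.2% in the control and 11.2%, 11.0% and 11.8% in the knockout libraries, a difference of -0.760 percentage points. let-7g took 3.54%, 3.76% and 3.40% against 3.97%, 4.42% and 4.09%, a difference of 0.594 percentage points. In a limma fit with all entries scaled to the family, a choice made after seeing the data, let-7g had a log2 fold change of 0.22 ± 0.14 SE (limma adjusted p = 0.542) and let-7b one of -0.09 ± 0.15 (limma adjusted p = 0.781), and neither passed the threshold, beside 0.0898% of all entries called lower and 2.78% called higher.

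**Figure D4:**
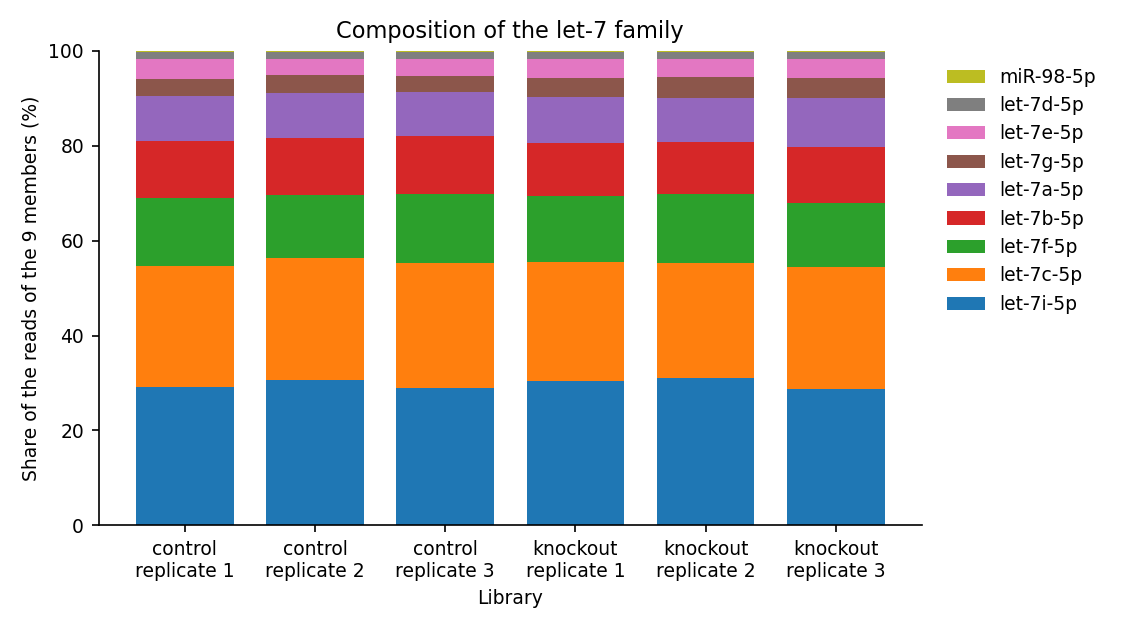
Share (%) of each member in the summed reads of the 9 members, by library; miR-98-5p, at the top, is too thin to be seen at 0.175% to 0.211%. The layers are of nearly the same height in all 6 libraries, with let-7i and let-7c as the largest.

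The replicates of the control group agreed closely for this family. The coefficient of variation between control libraries ran from 1.48% for let-7b to 8.16% for let-7e, with a median of 3.90%. The median was 11.1% over the 120 other named entries with mean levels between those of miR-98 and let-7i, and all 9 members lay below it. In the knockout group the members ran from 24.6% for let-7a to 36.6% for miR-98, with a median of 26.6%, beside 27.5% over the same 120 entries. The wider spread of the knockout group was therefore close to that of other miRNAs of like level, and in the family it came with the low values of knockout replicate 3. Per 1000000 reads of the other named miRNAs the coefficients of the members were 1.91% to 12.5% in the control (median 9.31%) and 14.7% to 27.7% in the knockout group (median 16.9%). let-7e, which had the highest coefficient in the control group as deposited, then had the lowest. In the control group the close agreement therefore held for the deposited scale and less for the rescaled one.

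The 3p arms of the hairpins, which are usually discarded, were rare. Of 12 partner arms, 10 were listed, and 4 had a mean of at least 10 RPM. let-7d-3p was the highest, at 132, 115 and 127 RPM in the control and 91.4, 94.3 and 47.9 RPM in the knockout libraries, without overlap (log2 fold change -0.73, limma adjusted p = 0.181). The libraries held 5.81 to 7.43 reads of let-7d-5p per read of let-7d-3p, and 189 to 259 reads of let-7b-5p per read of let-7b-3p. Of the 6 members for which this ratio was computed, the groups overlapped for let-7b, let-7d, let-7e, let-7f and let-7i. For let-7c, with both of its 3p arms summed, they did not: the ratio was 349, 456 and 368 in the control libraries against 200, 234 and 185 in the knockout libraries, and this difference was not tested. It rests on few 3p reads, 34 to 61 per library for let-7c-2-3p and 4 to 25 for let-7c-1-3p. It may also not be specific to let-7c, since let-7c-2-3p shares its sequence with an arm of let-7a, as given below. let-7b-3p averaged 25.5 ± 2.87 RPM in control and 17.4 ± 6.75 RPM in knockout libraries, and let-7c-2-3p 30.5 ± 4.65 and 28.0 ± 9.26 RPM (SD, n = 3 each). let-7i-3p had 11.8 to 14.1 RPM in the control libraries against 14.3, 6.21 and 1.09 RPM in the knockout libraries, with overlap (log2 fold change -1.19, limma adjusted p = 0.202). Without knockout replicate 3, where it had 2 reads, the log2 fold change of let-7i-3p was -0.41. let-7c-2-3p has the same sequence as let-7a-1-3p, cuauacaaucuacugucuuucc, and the latter was not listed, so the value may hold reads of both hairpins. The values of let-7c-1-3p, named here after they were seen, were 4.33, 4.44 and 2.46 RPM in the control and 6.22, 14.1 and 10.3 RPM in the knockout libraries. This arm, specific to the hairpin on chromosome 16, was higher in every knockout library while the shared let-7c-5p was lower, but it rests on 4 to 25 reads per library and did not pass (log2 fold change 1.21 ± 0.60 SE, limma adjusted p = 0.238).

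The RefSeq table holds 2 more mature mouse miRNAs with the seed of the members, and both were listed at a few reads per library. They are named here after their values were seen, and are shown because they begin like the members and end earlier.
let-7k: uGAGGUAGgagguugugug
miR-1961: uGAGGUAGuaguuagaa
let-7k, of 19 nt (chromosome 5, 147283257 to 147283275, GRCm38.p6), had 5.05, 4.44 and 4.91 RPM in the control libraries against 0, 2.26 and 3.26 RPM in the knockout libraries. miR-1961, of 17 nt (chromosome 5, 92788465 to 92788481), had 2.88, 1.48 and 4.30 RPM against 2.49, 1.69 and 0 RPM. In each library 3 reads, near the limit that a true count of 0 allows, correspond to 1.63 to 2.22 RPM. Single reads are missing from the recovered counts, so a listed 0 may stand for a single read, for which that limit is too low. let-7k had 6 to 8 reads in the control and 0 to 6 in the knockout libraries, and miR-1961 had 2 to 7 and 0 to 4. The rarest member, miR-98, exceeded both in every library.

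Some let-7 hairpins lie close to hairpins of the miR-99/100 and miR-125 families on the same strand, and such clusters are known to be transcribed together. The hairpin of let-7c-1 follows that of miR-99a after 656 bp, that of let-7e precedes that of miR-125a by 367 bp, and that of let-7a-2 follows that of miR-100 after 5211 bp. miR-99a-5p, the most abundant of the 5 neighbours, had 52157, 46097 and 43451 RPM in the control libraries against 31083, 35164 and 19716 RPM in the knockout libraries. miR-125a-5p, the rarest, had 4730, 3166 and 4519 RPM against 2674, 2396 and 2000 RPM. In both, knockout replicate 3 was again the lowest library. The groups did not overlap for any of the 5, with the knockout lower, beside 19.3% of all entries tested and 68.6% of the 51 abundant named ones, and none passed the threshold. The log2 fold changes were -0.80 for miR-125a-5p, -0.79 for miR-125b-5p, -0.76 for miR-99a-5p, -0.72 for miR-100-5p and -0.58 for miR-99b-5p, with limma adjusted p from 0.0850 to 0.341. They lay between those of let-7b and let-7g. Per 1000000 reads of the other named miRNAs they ran from -0.56 for miR-125a-5p to -0.35 for miR-99b-5p, with limma adjusted p from 0.174 to 0.543.

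Many other miRNAs followed the same course over the 6 libraries. Among the 119 named entries outside the family that average 100 RPM or more, Pearson's r of log2(RPM + 1) with that of the family's total had a median of 0.94, and 79 of them (66.4%) reached 0.9. The points share the library totals and the gap between the groups, so these values describe the libraries. The highest were miR-26b-5p (0.993), miR-199b-3p (0.992), miR-143-3p (0.991), miR-30b-5p (0.991) and miR-30a-3p (0.991). Per 1000000 reads of the other named miRNAs the median was 0.87 and 50 entries (42.0%) reached 0.9, with miR-30a-3p (0.988), miR-30a-5p (0.985), miR-26b-5p (0.984), miR-30b-5p (0.983) and miR-143-3p (0.977) the highest. Between members, r on that scale ran from 0.81 to 0.997 over the 36 pairs, with a median of 0.96.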

How the data were processed

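Small RNA of apoptotic osteoblast vesicles was measured in 3 control and 3 knockout libraries, grouped and numbered by their labels. The authors deposited 1 table of RPM values. The tools named, without a role, per the submitters' processing notes are fastp and edgeR. Aligner, miRNA release and genome build were not given in the sources used here. Every value was a whole multiple of a step worth 1 read within 0.001 reads, and no entry had 1 read, so the recovered reads are not complete counts and no count test was run. Entries with at least 1 RPM in at least 3 libraries (1114, all 9 members among them) were fitted with limma 3.58.1 in R 4.3.3 on log2(RPM + 1), with a mean-variance trend and Benjamini-Hochberg adjustment over all entries. Such fold changes understate those of low entries. The fit was repeated on values rescaled to the named entries outside the 9 members. Family totals and shares carry no p-value. The members, lists, named entries (the 9 members, partner arms and same-seed entries averaging 10 RPM or more, 5 neighbours, and the 5 entries most alike among those averaging 100 RPM or more) and alternatives were chosen with earlier results of these data known.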

Additional observations from a re-analysis of the deposited data

How the results depend on the processing

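All 9 members were lower in the knockout group in 14 alternatives on the deposited scale (log2 fold changes from -0.97 to -0.23) and in 15 on the scale of the other named miRNAs (-0.68 to -0.07), but not when scaled to the 9 members themselves. There the family sum is fixed, so the members cannot all be lower: 4 were below 0, and let-7g was the highest, at 0.22. On the deposited scale 0 members passed the threshold with all settings except a mean of at least 10 RPM, where 1 passed, let-7b (-0.82, limma adjusted p = 0.0393; 355 entries tested); on the other scale 0 passed in every alternative. The number of all entries called lower on the deposited scale was 30, and 15 with a pseudocount of 0.5, 15 with no filter, 71 with a mean of at least 10 RPM, 0 without a trend, 17 with a robust prior and 1 with quantile normalization; 24 were called higher, and 0 without a trend (75 lower and 55 higher at an unadjusted p under 0.05). On the other scale 5 were called lower, and 9 with a pseudocount of 5, 15 with no filter, 8 with a mean of at least 10 RPM, 1 without a trend, 1 without fragment-like entries and 1 when scaled to the 9 members, the last chosen after seeing the data; 25 were called higher, and 3 without a trend. With the replicate number as a block, the replicate block, 11 entries were lower and 0 members passed on the deposited scale, and 15 were lower and 37 higher with 0 members on the other. Same-numbered libraries did not deviate together (r of 0.01, -0.02 and 0.01, against -0.08 to 0.07 for other pairs), so the numbers were not taken as pairs. Leaving out 1 library gave 0 to 18 lower and 0 to 26 higher entries on the deposited scale (0 and 0 without control replicate 3, with 84 and 53 at an unadjusted p under 0.05; 0 lower without control replicate 2, with 128) and 0 to 4 lower and 2 to 26 higher on the other (0 lower without control replicate 2, with 69 at an unadjusted p under 0.05); the difference in the family total ran from -22840 to -14083 RPM, its share of named reads from -3.07 to -1.83 percentage points, and 2 to 3 members did not overlap in their share of the family. Leaving out 1 library also changed the sign of some differences in share of the family, in percentage points: that of let-7e ran from -0.081 (without control replicate 2) to 0.294, that of let-7f from -0.404 to 0.0513 (without control replicate 1), 0.156 (without knockout replicate 3) and 0.200 (without control replicate 3), that of let-7i from -0.0881 (without knockout replicate 2) to 1.09, and that of miR-98 from -0.0102 to 0.00441 (without control replicate 1) and 0.00817 (without knockout replicate 3); the cause was not tested. The planned edgeR test was not run, because single reads are missing from the recovered counts.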
